A study of Mus musculus with 6 samples.

Results

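The 10 genes described here are used as identity and housekeeping markers of resting astrocytes, and they were taken from the deposited table of mouse hippocampal RNA by symbol (Gfap, Aqp4, Aldh1l1, Slc1a2, Slc1a3, Gja1, Gjb6, Aldoc, S100b and Glul). All 10 have 1 row each among the 16060 rows of the table, and all 10 were among the 13321 genes tested. The table holds 6 libraries, 3 labelled Control and 3 labelled MA, with 1 library per mouse. The mice were adult male C57BL/6. Control mice received saline injections, and MA mice received methamphetamine (MA) at doses that rose from week to week over 3 weeks. All were killed directly after the behavioral tests that followed. Bulk RNA of the dissected hippocampus was sequenced, so every level is a sum over all cell types in the sample, including any from neighbouring tissue. No gene was deleted or targeted, so no such gene checks the labels. The groups are called as labelled, and every sign below rests on those labels and would turn if they were exchanged. As context chosen after the values were seen, the activity-regulated genes Arc and Fos were lower in every library labelled MA than in any labelled Control.

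Astrocytes clear glutamate from the synaptic cleft through the transporters encoded by Slc1a2 (GLT-1) and Slc1a3 (GLAST). Glutamine synthetase, encoded by Glul, turns that glutamate into glutamine, which neurons take back. Aquaporin-4 (Aqp4) carries water at the endfeet around vessels, and the connexins Cx43 (Gja1) and Cx30 (Gjb6) join neighbouring astrocytes through gap junctions. Gfap encodes an intermediate filament and S100b a calcium-binding protein, while Aldh1l1 and Aldoc encode a folate enzyme and the brain form of aldolase.

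None of the 10 genes differed between the groups at an adjusted p-value under 0.05 (limma over all 13321 genes tested, with Benjamini-Hochberg adjustment), a threshold that 0.263% of all tested genes passed (0.0976% lower and 0.165% higher in MA). At an unadjusted p-value under 0.05 there was 1 of 10, Aqp4, against 10.4% of all tested genes. The mean was lower in the MA libraries for 8 of the 10 genes, against 52.7% of all tested genes. The 8 include Slc1a3, S100b and Glul, with almost no difference (log2 fold changes of -0.0001, -0.004 and -0.007). Without MA replicate 3 the count was 4 of 10, against 51.5% of all tested genes. The median log2 fold change (MA minus Control) of the 10 genes was -0.047, and that of all tested genes was -0.010. The values are log2 of RPKM, a read density scaled by gene length and library size, with an inferred offset of 1. They were also normalized between libraries in a way that is not described. Each RPKM given here is such a normalized value, back-transformed. In bulk tissue, fewer astrocytes and less RNA per astrocyte cannot be told apart. With 3 libraries against 3, an exact two-sided permutation test cannot give a p under 0.1.

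**Figure D1:**
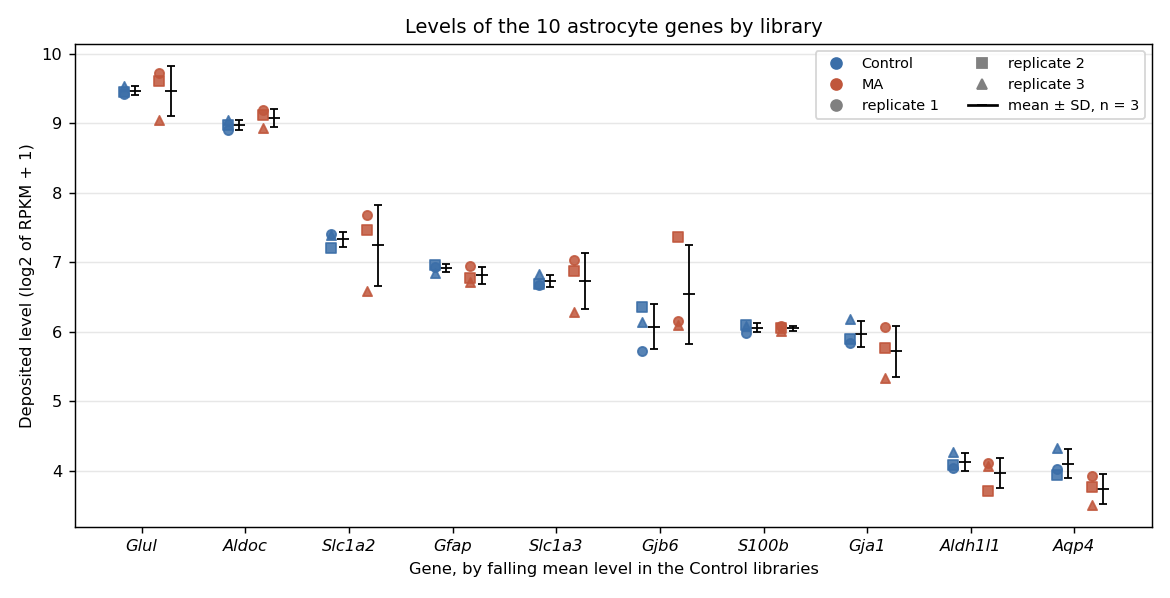
Deposited level (log2 of RPKM + 1) of each of the 10 genes in each library, with Control in blue, MA in red, a marker shape per replicate number, and the mean ± SD (n = 3) beside each group. The groups overlap for every gene except Aqp4, and the MA points spread widely for Slc1a2, Slc1a3, Glul, Gja1 and Gjb6.

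The library labelled MA replicate 3 stood apart in these genes. It held the lowest of the 6 values for 6 of the 10 (Slc1a2, Slc1a3, Glul, Gja1, Aqp4 and Gfap), while it was lowest for 29.8% of all tested genes. Control replicate 1 was lowest for 3 (14.8% of all tested genes) and MA replicate 2 for 1 (15.7%), and Control replicate 2, Control replicate 3 and MA replicate 1 were lowest for 0 of the 10 (8.32%, 12.5% and 18.9%). Across all tested genes its mean Pearson correlation with the other MA libraries was 0.978, and those of the other 5 libraries with their own group lay between 0.984 and 0.993. Its lowest value was 0.000206, where the other libraries had genes at 0. The SD was larger in the MA than in the Control libraries for 9 of the 10 genes, against 71.1% of all tested genes. Its median over the 10 genes was 0.10 in the Control and 0.29 in the MA libraries, where the medians over all tested genes were 0.10 and 0.17. The difference of each of the 10 genes is therefore given with and without MA replicate 3.

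The glutamate transporters and glutamine synthetase shared 1 pattern, which was not particular to them. The neuronal genes Syt1, Syn1, Map2, Eno2 and Gad2 had it too, though not all of the 10 neuronal genes tested did. Its share over all tested genes was not computed. Slc1a2 (ENSMUSG00000005089; GRCm38 chromosome 2, 102658659 to 102790784, plus strand), the main glutamate transporter of the adult forebrain, was 7.40, 7.20 and 7.39 on the log2 scale in Control replicates 1, 2 and 3. In MA replicates 1, 2 and 3 it was 7.68, 7.47 and 6.58. The first and second MA libraries thus lay above all Control libraries and the third below them, at 0.592 of the Control mean RPKM. The difference between the means (MA minus Control) was -0.09 (standard error, SE, 0.26, adjusted p = 0.943 in limma), with a 95% interval from -0.69 to 0.52. Without MA replicate 3 it was 0.24 (SE 0.09, adjusted p = 0.185 in limma). An antisense gene, Gm13872, shares exonic sequence with Slc1a2, and whether counting used strand is not given in the sources used here.

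Slc1a3 (ENSMUSG00000005360; chromosome 15, 8634124 to 8710764, minus strand), the transporter of astrocytes and radial glia, was 6.67, 6.69 and 6.83 in the Control libraries. It was 7.03, 6.88 and 6.28 in MA replicates 1, 2 and 3, so the same 2 MA libraries were above and the same 1 below all Control libraries. The means were 6.73 ± 0.09 and 6.73 ± 0.40 (SD, n = 3 each). On the log2 scale MA minus Control was -0.0001 (SE 0.19, adjusted p = 1.000 in limma), with a 95% interval from -0.43 to 0.43. Without MA replicate 3 it was 0.23 (SE 0.08, adjusted p = 0.162 in limma).

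For both transporter genes, 168 bases upstream of the RefSeq start are shown. The stretch runs from 250 to 83 bases before the start (GRCm38.p6) and is free of annotated exons in both. The order over the MA libraries that both genes had was also that of Glul, Aldoc, Gja1, Aqp4, Gfap and S100b. A link between sequence and level was not tested. Capitals mark TTGGC or its reverse complement GCCAA, the half-site of nuclear factor I proteins, which are known regulators of astrocyte genes. The Slc1a2 stretch is chr2:102706188-102706355 on the plus strand, inside the longer gene model given above, has a GC content of 46.4% and holds 1 match, which begins 114 bases before the start. The Slc1a3 stretch is chr15:8710890-8711057 on the minus strand, with a GC content of 41.1% and 0 matches. Of 32841 RefSeq promoter windows read over the same 168 bases, 29.2% hold a match.
Slc1a2: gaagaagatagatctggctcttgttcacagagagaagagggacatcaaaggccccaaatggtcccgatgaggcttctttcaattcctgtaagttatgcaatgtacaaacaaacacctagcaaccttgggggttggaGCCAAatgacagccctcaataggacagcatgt
Slc1a3: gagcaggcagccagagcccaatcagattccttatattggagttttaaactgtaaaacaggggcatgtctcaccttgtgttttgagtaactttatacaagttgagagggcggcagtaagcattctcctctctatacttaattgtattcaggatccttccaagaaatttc

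Glul (ENSMUSG00000026473; chromosome 1, 153899944 to 153909723, plus strand) had the highest level of the 10 genes. Its Control values were 9.42, 9.46 and 9.54. In MA replicates 1, 2 and 3 it was 9.73, 9.61 and 9.05. As for both transporters, MA replicates 1 and 2 lay above all Control libraries and MA replicate 3 below them, at 0.746 of the Control mean RPKM. MA minus Control was -0.01 (SE 0.17, adjusted p = 0.994 in limma), with a 95% interval from -0.40 to 0.39, and 0.20 (SE 0.07, adjusted p = 0.143 in limma) without MA replicate 3. Exons of Teddm2, on the other strand, and of Mir8114 overlap those of Glul.

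Within a library, Slc1a2 exceeded Slc1a3 by 0.73, 0.52 and 0.56 (log2) in the Control and by 0.65, 0.59 and 0.30 in the MA libraries. Glul exceeded Slc1a2 by 2.02, 2.26 and 2.15 in the Control and by 2.05, 2.14 and 2.47 in the MA libraries. A factor common to a whole library cancels in such differences, apart from the offset, but a normalization that reshapes the values need not. The groups differed by -0.09 and 0.08 (exact permutation test, two-sided, p = 0.6 and 0.7, or 0.9 and 0.9 after Benjamini-Hochberg adjustment over the 4 pairs compared), less than the SD within the MA group.

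Aqp4 (ENSMUSG00000024411; chromosome 18, 15389496 to 15410982, minus strand), the water channel, was the 1 gene of the 10 whose groups did not overlap, where 17.5% of all tested genes had groups that did not overlap. It was 4.02, 3.93 and 4.33 in the Control libraries and 3.93, 3.77 and 3.51 in the MA libraries. The gap between the highest MA and the lowest Control library was only 0.0062. The log2 fold change was -0.36 (SE 0.15, unadjusted p = 0.0422 and adjusted p = 0.458 in limma), and p was 0.1 by a two-sided exact permutation test. Without MA replicate 3 the log2 fold change was -0.25 with a limma unadjusted p of 0.103, so the unadjusted call was lost. At an unadjusted p-value under 0.05, 5.46% of all tested genes were lower in the MA libraries, and 10.2% had groups that did not overlap with MA lower.

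The connexins went different ways. Gja1 (ENSMUSG00000050953; chromosome 10, 56377330 to 56402513, plus strand), which encodes Cx43, was 5.83, 5.89 and 6.18 in the Control libraries and 6.06, 5.77 and 5.33 in the MA libraries. Its difference was -0.25 (SE 0.19, adjusted p = 0.708 in limma) with all libraries and -0.05 without MA replicate 3. Gjb6 (ENSMUSG00000040055; chromosome 14, 57123303 to 57133611, minus strand), which encodes Cx30, was 5.73, 6.36 and 6.13 in the Control libraries. It was 6.15, 7.36 and 6.09 in MA replicates 1, 2 and 3. MA replicate 2 was thus at 2.43 times the Control mean RPKM, and the other MA libraries lay within the Control range. Its difference of 0.46 (SE 0.34, adjusted p = 0.699 in limma) had the widest 95% interval of the 10 genes, from -0.33 to 1.26. Without MA replicate 2 it was 0.05, and without MA replicate 3 it was 0.68.

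Gja1 minus Gjb6 within a library was 0.11, -0.47 and 0.05 in the Control and -0.09, -1.60 and -0.76 in the MA libraries. The group difference of -0.71 did not exceed the MA spread (SD 0.76; exact permutation test, two-sided, p = 0.2, or 0.8 adjusted over the 4 pairs), and it was -0.32 without MA replicate 2 and -1.07 without MA replicate 1.

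Gfap (ENSMUSG00000020932; chromosome 11, 102887336 to 102900912, minus strand), whose protein is the usual stain for astrocytes, was 6.94, 6.97 and 6.85 in the Control libraries. In the MA libraries it was 6.94, 6.77 and 6.71. The groups overlapped, with a difference of -0.11 (SE 0.09, adjusted p = 0.725 in limma). Its 95% interval ran from -0.31 to 0.09, which corresponds to 0.806 to 1.07 times the Control level, and the difference without MA replicate 3 was -0.06. S100b (ENSMUSG00000033208; chromosome 10, 76253853 to 76261159, plus strand), which oligodendrocytes also express, was 5.98, 6.10 and 6.08 in the Control and 6.09, 6.05 and 6.01 in the MA libraries. Its difference of -0.004 had the smallest SE of the 10 genes (0.07, adjusted p = 0.993 in limma), and the 95% interval ran from 0.885 to 1.12 times the Control level. Without MA replicate 3 it was 0.014.

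Aldh1l1 (ENSMUSG00000030088; chromosome 6, 90486427 to 90600203, plus strand) encodes 10-formyltetrahydrofolate dehydrogenase. It was 4.03, 4.07 and 4.27 in the Control libraries and 4.11, 3.71 and 4.07 in the MA libraries. MA replicate 2, not 3, was the lowest here, and the log2 fold change of -0.16 (SE 0.13, adjusted p = 0.734 in limma) was -0.03 without MA replicate 2 and -0.21 without MA replicate 3. Exons of Gm15756, on the other strand, and of Gm45901 overlap those of Aldh1l1. Gfap exceeded Aldh1l1 by 2.91, 2.89 and 2.58 in the Control and by 2.83, 3.06 and 2.64 in the MA libraries, a difference between groups of 0.05 (exact permutation test, two-sided, p = 0.9, or 0.9 adjusted over the 4 pairs).

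Aldoc (ENSMUSG00000017390; chromosome 11, 78322968 to 78327781, plus strand), the aldolase isoform of glycolysis that is enriched in astrocytes, was 8.91, 8.98 and 9.04 in the Control libraries. In MA replicates 1, 2 and 3 it was 9.19, 9.12 and 8.93, so only the third fell within the Control range. The difference was 0.10 (SE 0.09, adjusted p = 0.745 in limma), and 0.18 (SE 0.06, adjusted p = 0.165 in limma) without MA replicate 3.

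**Figure D2:**
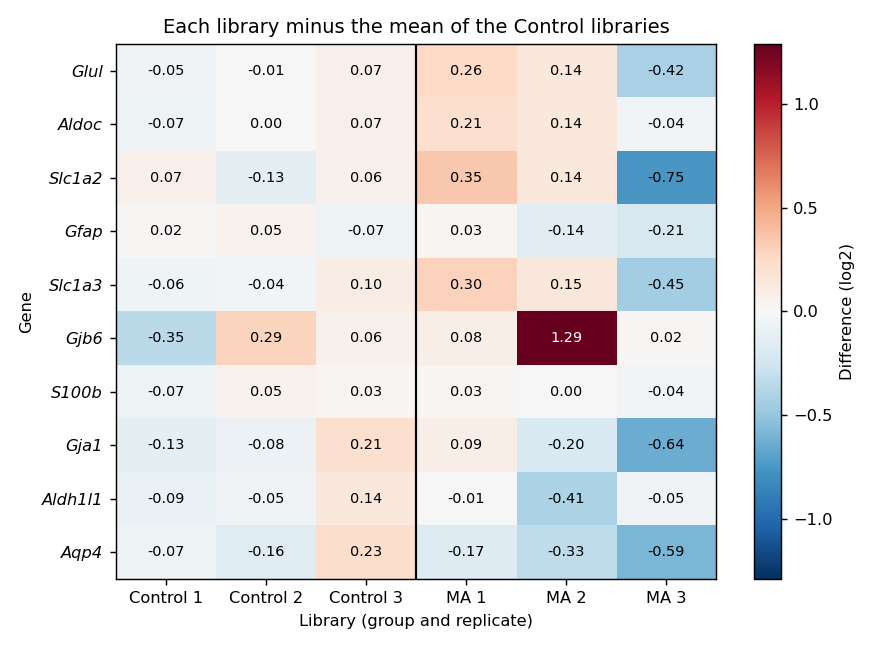
Difference on the log2 scale between each library and the mean of the 3 Control libraries for each of the 10 genes, with red for higher and blue for lower values. In MA replicate 3, Slc1a2, Gja1, Aqp4, Slc1a3 and Glul were between 0.42 and 0.75 lower, while Gjb6 stood out in MA replicate 2 at 1.29.

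Without MA replicate 3, both remaining MA libraries lay above all Control libraries for 4 of the 10 genes (Slc1a2, Slc1a3, Glul and Aldoc), against 20.8% of all tested genes. The same 4 had an unadjusted p-value under 0.05 in limma, and 23.3% of all tested genes did so in either direction and 11.9% in the higher direction. MA replicate 3 was singled out partly by its low values in these same genes. These counts and p-values therefore follow in part from that choice and are descriptions only. None of the 10 passed the adjusted threshold, which 1.93% of all tested genes passed, and the smallest adjusted p of the 10 was 0.143, for Glul. With all 6 libraries and limma sample quality weights, which gave MA replicate 3 the lowest weight, 0 of the 10 passed, against 4.4% of all tested genes. Both remaining MA libraries lay below all Control libraries for 1 of the 10, Aqp4, against 22.1% of all tested genes. The median log2 fold change of the 10 genes was 0.096 and that of all tested genes -0.008.

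**Figure D3:**
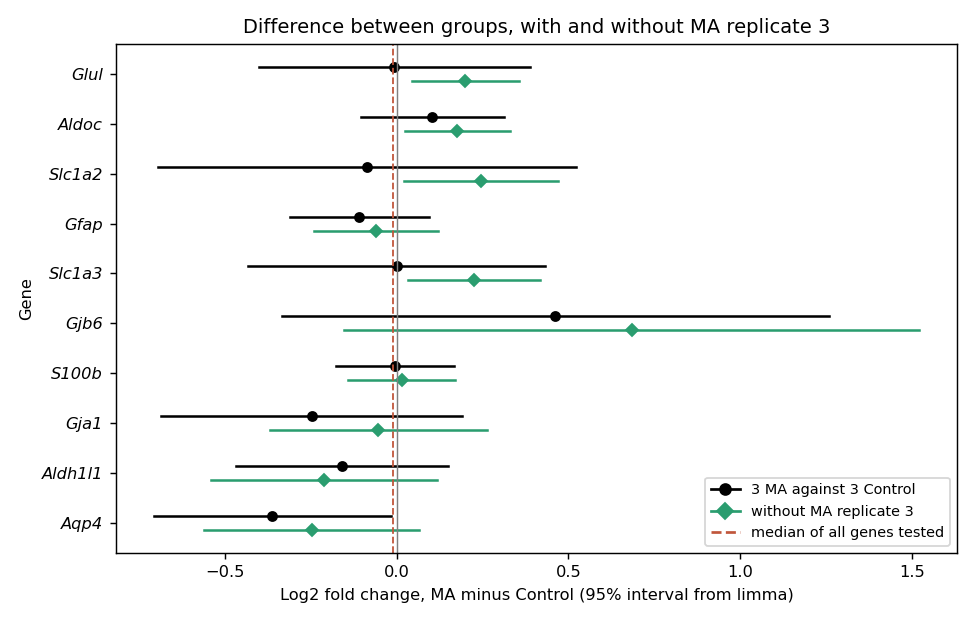
Log2 fold change (MA minus Control) of each gene with its 95% interval from limma, for all 6 libraries in black and without MA replicate 3 in green, beside the median of all tested genes (dashed). With all libraries only the interval of Aqp4 lies off 0, from -0.71 to -0.02, and without MA replicate 3 those of Glul, Aldoc, Slc1a2 and Slc1a3 lie above 0. MA replicate 3 was singled out partly by its low values in these genes, so the green intervals depend on that choice.

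RPKM allows the genes to be ordered by level. In the Control libraries the mean RPKM was 709 ± 30.0 for Glul, 503 ± 24.2 for Aldoc, 160 ± 12.2 for Slc1a2, 120 ± 5.10 for Gfap and 105 ± 6.62 for Slc1a3 (SD, n = 3 each). The ranges of neighbours in this order did not overlap. Gjb6 (67.5 ± 14.7), S100b (65.5 ± 2.95) and Gja1 (61.9 ± 8.29) came next and could not be ordered, since each overlapped its neighbour. Aldh1l1 (16.5 ± 1.57) and Aqp4 (16.2 ± 2.56) were lowest and overlapped too. Aqp4 was above 63.2% of all tested genes by mean level and Glul above 99.3%. The summed RPKM of the 10 genes was 1752, 1817 and 1907 in the Control libraries and 2122, 2043 and 1488 in MA replicates 1, 2 and 3, and Glul and Aldoc made up between 65.3% and 68.3% of it.

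In the pathways around these genes, 2 members of the lists passed the adjusted threshold. Of 18 other genes of glutamate and glutamine handling, 0 passed (limma), and 1 higher and 1 lower had an unadjusted p-value under 0.05. Slc38a3, a glutamine transporter of astrocytes, had a log2 fold change of 0.30 (adjusted p = 0.347 in limma), and Slc1a1, the neuronal glutamate transporter, one of -0.22 (adjusted p = 0.466 in limma). Of 9 other connexins and pannexins tested of 14 listed, 0 passed and 1 had an unadjusted p-value under 0.05. That gene was Gjc1, at 0.42 (adjusted p = 0.405 in limma).

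Among 16 tested of 17 genes of endfoot water and potassium handling, 1 passed, Aqp1, at 1.66 (adjusted p = 0.0315 in limma). Aqp1 encodes the water channel of the choroid plexus and stands on that marker list as well. It was 0.06, 0.38 and 0.63 in the Control and 1.79, 1.99 and 2.28 in the MA libraries. The Control values are near the floor, and Aqp1 met the filter for testing only through its MA libraries. Its fold change therefore depends on the offset. With a pseudocount of 0.1 or 0.01 it was 3.24 or 3.88 and did not pass (adjusted p = 0.087 and 0.176 in limma). Of 9 intermediate filament genes tested of 10, Nes passed at -1.18 (SE 0.13, adjusted p = 0.0315 in limma). Nes encodes nestin, a filament of neural stem cells and some vessel cells, and was 2.10, 2.10 and 2.45 in the Control and 1.07, 1.04 and 1.01 in the MA libraries. With MA replicate 3 left out both calls were kept, at a limma adjusted p of 0.0274 each. Of the 14 alternative settings run for each (both fell below the minimum mean of 5), the call of Aqp1 was lost in 8 and that of Nes in 7, and for Nes these included a fit blocked on replicate number (adjusted p = 0.106 in limma).

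The other lists held no call in limma. Of 10 other S100 genes 1 had an unadjusted p-value under 0.05, and the leading genes were S100a10 at 0.33 and S100a16 at -0.19 (adjusted p = 0.290 and 0.661 in limma). Of 16 one-carbon folate genes tested of 17, 2 were lower at an unadjusted p-value under 0.05, Gldc at -0.37 and Mthfd1l at -0.28 (adjusted p = 0.329 and 0.450 in limma). Of 18 glycolysis genes, 1 was lower at that level, Ldhb at -0.17, ahead of Pfkfb3 at -0.34 (adjusted p = 0.476 and 0.534 in limma). Of 27 tested of 33 reactive astrocyte genes, 14 had a higher and 13 a lower mean in the MA libraries, and 4 had an unadjusted p-value under 0.05. Hspb1, a small heat shock protein gene with a pseudogene copy that could share its reads, had a log2 fold change of -1.27 (limma adjusted p = 0.0785, or 0.0274 without MA replicate 3). Cd109 had one of -0.48 (adjusted p = 0.266 in limma).

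Of 44 other astrocyte genes found among 45 listed, 0 passed the adjusted threshold (limma), 2 higher and 4 lower had an unadjusted p-value under 0.05, and 24 had a higher mean in the MA libraries. Their median log2 fold change was 0.044, and 0.10 without MA replicate 3, where Fgfr3 and Sparc passed, both higher. MA replicate 3 was the lowest library for 21 of the 44. Their summed RPKM was between 11900 and 14400 in the Control libraries, 15230 and 14970 in MA replicates 1 and 2, and 12030 in MA replicate 3.

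Other cell types moved with these libraries, and their part in the values above was not tested. Of the 8 choroid plexus genes all 8 had a higher mean in the MA libraries and 4 passed the adjusted threshold (Aqp1, Clic6, Folr1 and Kl), with a median log2 fold change of 1.83. Their summed RPKM was 64.6, 174 and 420 in the Control libraries and 1778, 2309 and 5081 in the MA libraries, highest in MA replicate 3. Ttr made up most of this sum in every library and did not pass (adjusted p = 0.0887 in limma). In MA replicate 3 Ttr was at the highest value that any library held. The list did not peak there as a whole. Aqp1, Kcne2, Otx2 and Ttr were highest in MA replicate 3, Clic6, Folr1 and Kl in MA replicate 2, and Prlr in MA replicate 1. Without MA replicate 3, 7 of the 8 passed. Aqp1, Kcne2 and Prlr, which are among these 7, did not reach the filter level of 0.5 (back-transformed) in every Control library. They were tested only through their MA libraries, so their higher means and calls follow in part from the filter. Of 5 blood genes 3 passed, all higher (Hba-a1, Hba-a2 and Hbb-bs, globin genes with near-identical copies that could share reads), and the sum was between 1600 and 2020 in the Control and between 3320 and 4380 in the MA libraries. All 5 passed without MA replicate 3. All 7 thalamic genes had a higher mean in the MA libraries, and none passed (limma, 2 at an unadjusted p-value under 0.05). Their sum was between 37.3 and 57.1 in the Control libraries, 113.5 and 114.6 in MA replicates 1 and 2, and 58.4 in MA replicate 3.

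Neuronal markers followed the astrocyte genes in MA replicate 3. That library was the lowest for 9 of the 10 neuronal genes tested, and their sum was 2455 there, against 2816 to 3191 in the other libraries. Of the 10 neuronal genes 0 passed and 0 had an unadjusted p-value under 0.05 (limma), with 4 higher and 6 lower. The hippocampal neuron genes had 7 of 8 lower and 0 passed, with 3 at an unadjusted p-value under 0.05 (limma), 2 lower and 1 higher (Grik4). Their sum was between 201 and 242 in the Control and between 173 and 205 in the MA libraries.

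For the other lists 0 genes passed in limma, save Nes on the list of 7 neural stem cell genes. Without MA replicate 3, Pdgfra (precursor) and Slco1a4 (endothelial) also passed and were higher, and Thbs4 (neural stem cell) passed and was lower. At an unadjusted p-value under 0.05 there were 0 of 10 oligodendrocyte, 1 of 6 oligodendrocyte precursor, 0 of 9 microglia, 2 of 8 endothelial, 0 of 7 mural and 1 of 6 ependymal genes. The summed RPKM of the oligodendrocyte genes was between 3080 and 3410 in the Control and between 2860 and 3570 in the MA libraries. Mbp, the most abundant of them, was the only one of the 10 with a higher mean in the MA libraries, and the median log2 fold change was -0.20, or -0.38 without MA replicate 3. All 8 endothelial genes had a higher mean, with a median of 0.092, or 0.23 without MA replicate 3. The sum of the microglia genes was between 175 and 181 and between 161 and 180, and that of the endothelial genes between 153 and 174 and between 168 and 209. Sums of the mural genes lay between 89.6 and 97.2 and between 93.3 and 97.3, and those of the precursor genes between 84.1 and 97.3 and between 89.3 and 101. The ependymal sums lay between 29.4 and 47.0 and between 33.4 and 59.4, and those of the neural stem cell genes between 123 and 135 and between 103 and 132. No marker of any of these cell types was at 0 in a library.

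**Figure D4:**
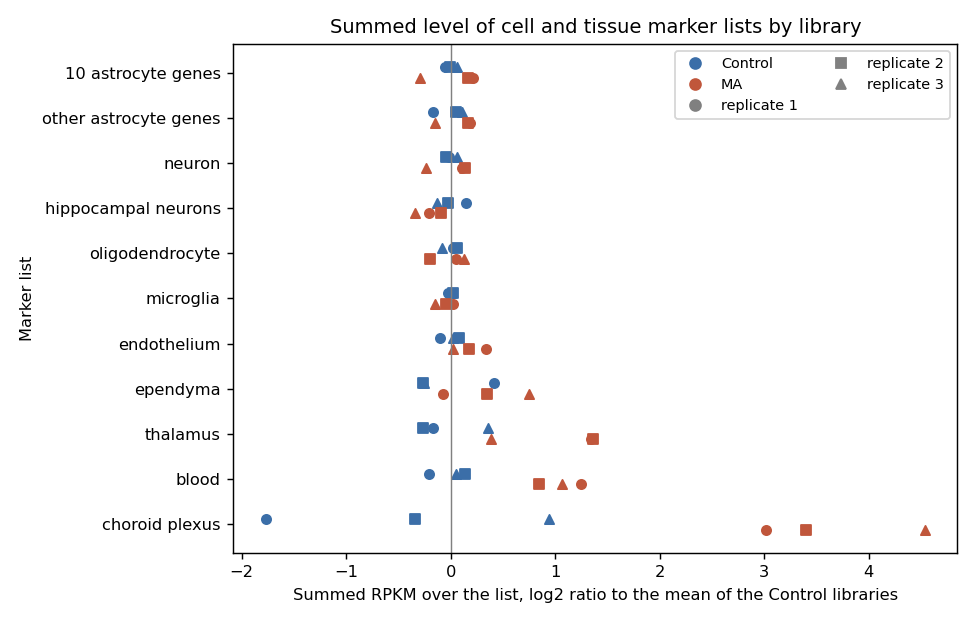
Summed RPKM of each marker list in each library, as the log2 ratio to the mean of the 3 Control libraries, with Control in blue and MA in red and a marker shape per replicate number. The choroid plexus and blood lists separate the groups, and the thalamus list does so narrowly. The 10 astrocyte genes and the neuron list have MA replicates 1 and 2 above and MA replicate 3 below the Control libraries.

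The genes whose profile over the 6 libraries was closest to that of Gfap were Pctp, Zfp763, Zik1, Chst3 and Abcg1. Their mean absolute differences from it were between 0.0204 and 0.0251 on the log2 scale after each gene was centred, where the profile of Gfap itself had a mean absolute size of 0.0859. Closest to the mean profile of the 10 genes were Atxn7l3b, Cdc37l1, Pcdhb19, Gprin3 and Dynll2, at 0.0169 to 0.0226, with a mean absolute size of 0.119. These are descriptions over 6 libraries only.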

How the data were processed

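Bulk RNA of the hippocampus was sequenced, 1 library per mouse. The paper names Hisat2, featureCounts and FPKM, whereas the submitters' processing notes name Bowtie 0.12.2 and the builds mm8 and mm9, and the kits also differ between paper and labels. The authors deposited 1 table named as RPKM, with values normalized between libraries and put on a log2 scale, steps they do not describe. The offset of 1 is inferred, and the highest value is shared by all 6 libraries. Depth is unknown because the table gives no read totals.

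Genes at 0.5 or more (back-transformed) in at least 3 libraries were tested with limma 3.58.1 in R 4.3.3 (lmFit, eBayes with a trend, no covariate, Benjamini-Hochberg adjustment, threshold 0.05), after a check on simulated data. Single genes and 4 pairs were compared with an exact two-sided permutation test in scipy 1.17.1. P-values measure only the spread between these libraries.

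Members and lists were chosen with earlier results of these data known. The genes named were all 10 members and, from each pathway list, those past the threshold or else the 2 with the smallest p, of which 1 is not reported here. The genes most alike were the 5 with the smallest mean absolute difference of centred values. Coordinates are those of GENCODE M21 (GRCm38), for location only. RefSeq held promoters of 9 of the 10 members. The other experiments of the study were not analysed here.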

Additional observations from a re-analysis of the deposited data

How the results depend on the processing

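No member passed the adjusted threshold under any of the 15 alternatives run (pseudocount 0.1 or 0.01, no filter, minimum mean of 5, median centring, quantile normalization, no eBayes trend, sample quality weights, replicate block, and each library left out), where the smallest adjusted p of a member was 0.141 (limma, sample quality weights). The number of members with a lower mean in the MA libraries was 5 with sample quality weights and from 4 to 8 with 1 library left out (5 without Control replicate 3 and 4 without MA replicate 3). The log2 fold changes of Slc1a2, Slc1a3 and Glul turned positive with sample quality weights, at 0.17, 0.16 and 0.14, a setting that gave MA replicate 3 a weight of 0.194 against 0.937 to 2.45 for the others. With 1 library left out they ranged from -0.31 to 0.24, from -0.15 to 0.23 and from -0.14 to 0.20, lowest without MA replicate 1 and highest without MA replicate 3, and S100b ranged from -0.0409 to 0.020. Of the differences within libraries, Slc1a2 minus Slc1a3 ranged from -0.15 to 0.019, Gja1 minus Gjb6 from -1.07 to -0.32, Glul minus Slc1a2 from -0.0446 to 0.16 and Gfap minus Aldh1l1 from -0.0585 to 0.15. The number of members whose MA libraries all lay above all Control libraries was 0 with 6 libraries and 4 without MA replicate 3, an alternative chosen after seeing the data. Over all tested genes, 35 passed, and 3 did with no filter, 20 with a minimum mean of 5, 586 with sample quality weights and 15 with the replicate block. With 1 library left out 0 to 257 passed, with 0 without Control replicate 2, Control replicate 3 or MA replicate 2 (911, 1011 and 1031 at an unadjusted p-value under 0.05, limma) and 257 without MA replicate 3. Same-numbered libraries did not deviate together (correlations of -0.197, -0.242 and -0.337 across genes), and 0 of the 6 libraries correlated best with its own number, so the numbers were not taken as pairs. Apart from the 11 changes of direction among the 150 member values recomputed, in Slc1a2, Slc1a3, Glul and S100b, the other 139 kept direction and side of the threshold. Of the other genes named from the pathway lists, Hspb1 and Gjc1 passed with sample quality weights and Hspb1 without MA replicate 3. The cause of these changes was not tested. Depth is unknown, so its part in the precision cannot be given.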
